A study of Arabidopsis thaliana with 28 samples.

Results

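SWEET proteins are a family of plant sugar transporters, and 9 Arabidopsis loci of the family were examined here in roots kept in darkness under different oxygen levels. The members were taken as the probe sets that the annotation assigns to a single gene at SWEET1, SWEET2, SWEET4, SWEET11, SWEET12, SWEET13, SWEET15 (also named SAG29), SWEET16 and SWEET17. The loci were chosen by measured signals of these arrays, by a rule over all groups that sets effects of darkness beside effects of oxygen. The rule does not name the values used. The change with time in normal air, known from earlier results, is therefore treated as used in the choice. Values at lowered oxygen may have been used as well, so p-values below describe size against array spread and are not independent evidence for the choice. Of these 9 loci, 8 had 1 such probe set each, and SWEET12 (AT5G23660) was not analysed here. The 8 stand among 13513 probe sets assigned to a single gene, which cover 13355 genes.

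SWEET proteins let sugars pass through a membrane along the concentration gradient, in either direction and without a proton. Members of the clade of SWEET11, SWEET12, SWEET13 and SWEET15 carry mainly sucrose across the plasma membrane, and SWEET11 and SWEET12 export sucrose from leaf phloem parenchyma ahead of phloem loading. SWEET1 and SWEET4 carry hexoses at the plasma membrane, while SWEET2, SWEET16 and SWEET17 lie in the vacuolar membrane, where SWEET2 holds glucose in root cells and SWEET17 carries fructose.

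The roots came from Arabidopsis thaliana seedlings (ecotype given as col2) raised on vertical agar plates with 1% sucrose under 12 h of light and 12 h of darkness. At 10 days from germination the plates were moved to unbroken darkness under a gas stream with 350 ppm CO2, in which oxygen was set to 1%, 4%, 8% or, as normal air, 21%, and roots were frozen after 0.5, 2 or 48 h. RNA of each sample went to 1 of 28 arrays, which gave 12 groups of 2 or 3 arrays, and replicates are marked by letters A to G. The labels do not say that replicates came from separate cultures, so p-values measure the spread between these arrays, which may be technical. All 28 arrays come from roots in darkness and none from the light or from the time of transfer, so that time in darkness cannot be told apart from time under the gas stream or from seedling age. The plants stood on medium with sucrose throughout, including those in normal air.

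The deposited values are MAS5 signals, a linear brightness per probe set, scaled by the authors to a trimmed mean of 100 on each array, and the number of arrays limits the precision of each value. Differences were tested on log2(signal + 6), the log2 scale used below, in a limma model with a mean for each of the 12 groups, and an adjusted p is the Benjamini-Hochberg value over all 13513 probe sets of a comparison, with a threshold of 0.05. Letters were unevenly spread: A and B occurred at 48 h only, G at 0.5 h only, E at 2 h only, C and D at 0.5 and 2 h, and F at every duration and in 11 of the 12 groups. The 3 arrays of letter B read higher at the dim end, with a 20th percentile of 10.5 to 11.4, against 3.92 to 7.29 on the other 25 arrays. For the 8% array of letter B at 48 h the labels mention control besides 8% oxygen, and its title decided for 8%. Of 18 root cell type markers 3 had a single-gene probe set. PYK10, a root beta-glucosidase, had signals of 2715 to 8962 over the 28 arrays. Phloem markers (6 listed) had none.

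SWEET11 (AT3G48740) was low after 0.5 and 2 h and high after 48 h at every oxygen level. At 0.5 h its signals were 47.0 and 37.8 in 1% oxygen, 41.7 and 50.5 in 4%, 42.3 and 14.2 in 8%, and 42.1, 72.6 and 18.2 in normal air. At 2 h they were 45.3 and 45.2 in 1% oxygen, 41.4 and 72.4 in 4%, 34.1 and 94.0 in 8%, and 38.1, 97.8 and 47.5 in normal air. At 48 h they were 973 and 110.5 in 1% oxygen, 324 and 391 in 4%, 920, 433 and 348 in 8%, and 1141, 570 and 339 in normal air. Each of the 10 arrays at 48 h was above each array at 0.5 and 2 h, of which the highest read 97.8. Over all probe sets, 2.52% had every lowered-oxygen array at 48 h above every one at 2 h and 3.14% above every one at 0.5 h, and in normal air 11.3% and 9.89% did. The share with all 10 arrays at 48 h above all earlier arrays was not counted. In the order of group means the 48 h groups came first, with 683 in normal air, 567 in 8%, 542 in 1% and 357 in 4% oxygen, and neighbours among these 4 overlapped. The next group was 8% oxygen at 2 h with 64.0, which did not overlap the group above it, and from there down to 28.3 in 8% oxygen at 0.5 h each group overlapped its neighbour.

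**Figure D1:**
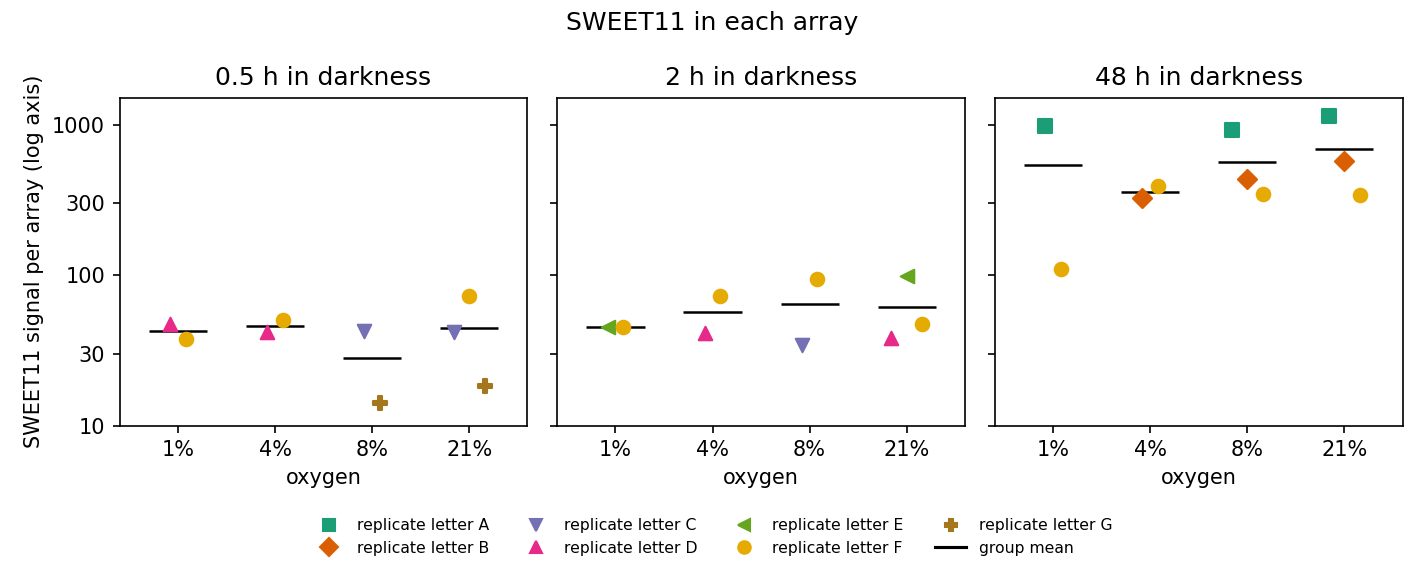
SWEET11 signal (log axis) on each of the 28 arrays, by oxygen level within each duration in darkness. Symbols mark replicate letters and lines the group means. The 10 arrays at 48 h (110.5 to 1141) lie above all arrays at 0.5 and 2 h (up to 97.8), and the 1% array of letter F is the lowest at 48 h.

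SWEET11 rose between the early durations and 48 h at lowered oxygen. Over the mean of 1%, 4% and 8% oxygen its log2 level was 2.78 ± 0.434 (SE) higher at 48 h than at 2 h, a 6.87-fold difference (95% interval 1.87 to 3.68 on the log2 scale, limma adjusted p = 0.000348). Against 0.5 h the difference was 3.23 ± 0.434, or 9.35-fold (interval 2.32 to 4.13, limma adjusted p = 5.44e-05). In these comparisons 12.2% (48 against 2 h) and 14.8% (48 against 0.5 h) of all probe sets passed, 5.04% and 6.23% as higher at 48 h. By size SWEET11 ranked 4 and 2 from the top of 13513. The arrays are of whole roots, so more cells with the transcript and more transcript per cell cannot be told apart. Both tests use arrays other than those of normal air, but the genes were listed with results of these data in view, so the p-values describe size against array spread and are not independent evidence for the choice of SWEET11.

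In normal air, where the change with time was in view when the genes were chosen, the log2 differences are given without a test. SWEET11 stood 3.29 ± 0.632 (SE) higher at 48 h than at 2 h, or 9.76-fold, and 3.76 ± 0.632 higher at 48 h than at 0.5 h, or 13.6-fold. Between 2 and 0.5 h the difference in normal air was 0.47. Over the 3 lowered levels the difference of 2 from 0.5 h was 0.45 ± 0.447 (limma adjusted p = 1), where 0.0666% of all probe sets passed, so that the difference of 2 from 0.5 h was within the spread of the arrays.

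Taken level by level, with 2 or 3 arrays a group, the SWEET11 difference passed the threshold at 8% oxygen alone, where 1.49% of all probe sets passed between 48 and 2 h and 1.83% between 48 and 0.5 h. At 8% the log2 difference was 3.05 for 48 against 2 h (limma adjusted p = 0.0377) and 4.07 for 48 against 0.5 h (limma adjusted p = 0.00536). At 1% the differences were 2.72 and 2.81 (limma adjusted p = 0.0898 and 0.0541, with 1.26% and 2.8% of all probe sets passing), and at 4% 2.57 and 2.80 (limma adjusted p = 0.2 and 0.108, with 0.237% and 0.533% passing). At 1% the difference between 48 and 2 h rested on how its 48 h arrays were weighed: it was 1.19 without letter A (973) and 4.26 without letter F (110.5), the second of which passed (limma adjusted p = 0.0029). At 8% the call of 48 against 2 h was lost without letter C at 2 h (2.39, limma adjusted p = 0.396), without letter F at 2 h (3.71, 0.0798), without letter A at 48 h (2.64, 0.122) or without letter B at 48 h (3.18, 0.0689). It was also lost without either 1% array at 2 h (E 0.0515 and F 0.0516, both limma adjusted p), with the difference as before. The call of 48 against 0.5 h at 8% was lost without letter G at 0.5 h (3.44, limma adjusted p = 0.173). At 1% that difference was 1.27 without letter A at 48 h and 4.35 without letter F, which passed (limma adjusted p = 0.00148), and at 4% it passed without either of these 1% arrays (limma adjusted p = 0.0318 without A and 0.0313 without F).

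Replicate letter moved with the SWEET11 level. At 48 h the 3 arrays of letter A read 920 to 1141, the 3 of letter B 324 to 570 and the 4 of letter F 110.5 to 391. Letters A and B have no earlier array, so letter F gives the comparison within a letter. Ratios within letter F are of signal + 6, as in the tests, so they understate the ratios of the signals themselves. SWEET11 was 2.28-fold higher at 48 h than at 2 h in 1% oxygen, 5.06-fold in 4%, 3.54-fold in 8% and 6.45-fold in normal air. Against 0.5 h it was 2.66-fold higher in 1%, 7.01-fold in 4% and 4.39-fold in normal air. All 7 of these ratios were above 1, and the 48 to 2 h ratio was lowest at 1%. Several share a 48 h array, and they include normal air. They were not counted over all probe sets, so they are a description. Without the arrays of letters A and B, the mean difference over lowered oxygen was 2.12 for 48 against 2 h and 2.57 for 48 against 0.5 h. Every 48 h group then keeps letter F alone, so the spread at 48 h is not measured and no test is given.

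With the letter as a block, the mean difference of SWEET11 over lowered oxygen between 48 and 0.5 h was 1.97 (limma adjusted p = 0.000222). Letter F alone has arrays at both durations, so whether letters pair these arrays could not be settled. By level the blocked difference of 48 from 0.5 h was 1.68 at 1% oxygen (limma adjusted p = 0.0145), 2.42 at 4% (limma adjusted p = 0.00259) and 1.80 at 8% (limma adjusted p = 0.0869). The call therefore appeared at 1% and 4% and was lost at 8%. At 8% letter F has no array at 0.5 h, so the blocked value there is indirect. Its SE was 0.507, against 0.413 at 1% and 4%. With the block, 14.1%, 12% and 1.39% of all probe sets passed at 1%, 4% and 8%, and 25% in the mean.

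**Figure D2:**
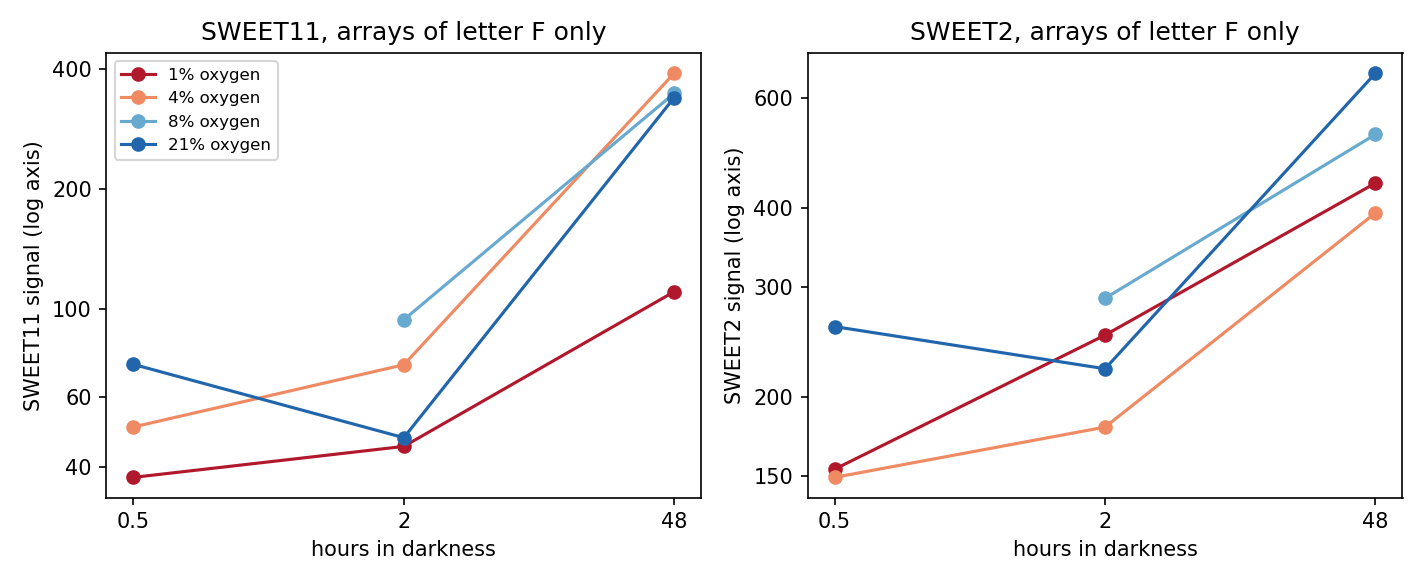
Signals (log axis) of SWEET11 and SWEET2 on the arrays of letter F alone, joined across 0.5, 2 and 48 h at each oxygen level (letter F has no array at 8% and 0.5 h). Both genes read higher at 48 h than at 2 h at all 4 levels, SWEET11 2.28-fold to 6.45-fold and SWEET2 1.73-fold to 2.91-fold, as ratios of signal + 6.

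In the oxygen comparisons SWEET11 did not pass at any level or duration. At 48 h its log2 level differed from that in normal air by -0.86 ± 0.706 (SE) at 1%, -0.76 ± 0.706 at 4% and -0.22 ± 0.632 at 8% oxygen, none of which passed (limma adjusted p = 1 for each). The 95% intervals ran from -2.33 to 0.62, from -2.23 to 0.72 and from -1.54 to 1.10, which leaves room for a difference of more than 1 log2 unit in either direction at 8% and downward at 1% and 4%. Within letters at 48 h, the 1% array differed on the log2 scale from its normal-air partner by -0.23 in letter A and -1.57 in letter F. The 4% array differed by -0.81 in letter B and 0.20 in letter F, and the 8% array by -0.31 in A, -0.39 in B and 0.03 in F. The value at 1% turned with 1 array, being -2.39 without letter A and 0.68 without letter F, neither of which passed. At 0.5 and 2 h the 6 differences of SWEET11 from normal air lay between -0.53 and 0.21. With the letter as a block the 9 differences of all durations lay between -1.03 and 0.57, 3 of them with the sign turned, and none passed.

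SWEET13 (AT5G50800), a sucrose carrier of the same clade, was dim, below its array's median on 27 of 28 arrays. Its signals ran from 11.1 to 29.5 at 0.5 h, from 9.29 to 25.3 at 2 h and from 9.84 to 45.5 at 48 h, and the 3 durations overlapped. Over lowered oxygen its log2 level at 48 h differed by 0.26 ± 0.269 from that at 2 h (limma adjusted p = 0.586) and by -0.18 ± 0.269 from that at 0.5 h (limma adjusted p = 0.737). The interval of the difference from 2 h was -0.30 to 0.82, which lies below that of SWEET11. SWEET15 (AT5G13170), known as a gene of leaf senescence, was below the array median on 27 of 28 arrays as well. Its signals were 12.2 to 25.8 at 0.5 h, 13.0 to 22.7 at 2 h and 11.2 to 45.5 at 48 h. Its difference of 48 from 2 h was 0.23 ± 0.231 (limma adjusted p = 0.577, interval -0.25 to 0.71). The highest signal of both genes came from the 8% array of letter B at 48 h, 1 of the arrays that read higher at the dim end, and the part of that in these values was not tested.

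SWEET1 (AT1G21460), a glucose carrier, was below the array median on 23 of 28 arrays. At 0.5 h its signals were between 20.6 and 31.4, and at 2 h between 18.5 and 34.6. At 48 h they were 17.6 and 23.0 in 1% oxygen, 66.1 and 32.7 in 4%, 47.8, 65.9 and 29.7 in 8%, and 49.7, 58.8 and 29.3 in normal air. The 3 highest belong to letter B (58.8 to 66.1), and the 1% arrays are the lowest of the 48 h arrays, an order not counted over all probe sets. Over the mean of lowered oxygen SWEET1 was 0.52 ± 0.195 higher on the log2 scale at 48 than at 2 h and did not pass (limma adjusted p = 0.0923). After quantile normalization the difference was 0.57 (limma adjusted p = 0.0145) and after median centring of the arrays 0.54 (limma adjusted p = 0.0159), and both passed. It was 0.16 with the letter as a block and did not pass (limma adjusted p = 0.516). The call also appeared without the 48 h letter F array of 4% (0.67, limma adjusted p = 0.032) or of 8% (0.61, limma adjusted p = 0.0375). Within letter F the 48 to 2 h ratio of signal + 6 was 0.949 in 1%, 1.18 in 4%, 1.29 in 8% and 1.07 in normal air.

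SWEET1 at 48 h in 1% oxygen had the smallest adjusted p of all the oxygen comparisons of the 8 genes. Its log2 level was 0.94 ± 0.317 below normal air and did not pass (limma adjusted p = 0.641). The 1% arrays read 17.6 and 23.0, and those of normal air 49.7, 58.8 and 29.3. How many probe sets separate these 2 groups was not counted, so nothing is read from the order of the arrays. With the letter as a block the difference was -0.72 (limma adjusted p = 0.0798). At 4% and 8% oxygen the differences were 0.07 and 0.04. SWEET4 (AT3G28007), a hexose carrier of the root vasculature, was below the array median on all 28 arrays. Its signals were 25.1 to 32.9 on the 3 letter B arrays and at most 11.8 on every other array, so that levels above 11.8 came from the arrays that read higher at the dim end. In 1% oxygen at 48 h it was 5.44 and 8.10, against 11.8, 32.9 and 11.8 in normal air, a log2 difference of -0.86 ± 0.377 that did not pass (limma adjusted p = 0.912). Its difference of 48 from 2 h over lowered oxygen was 0.34 ± 0.232 (limma adjusted p = 0.398).

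**Figure D3:**
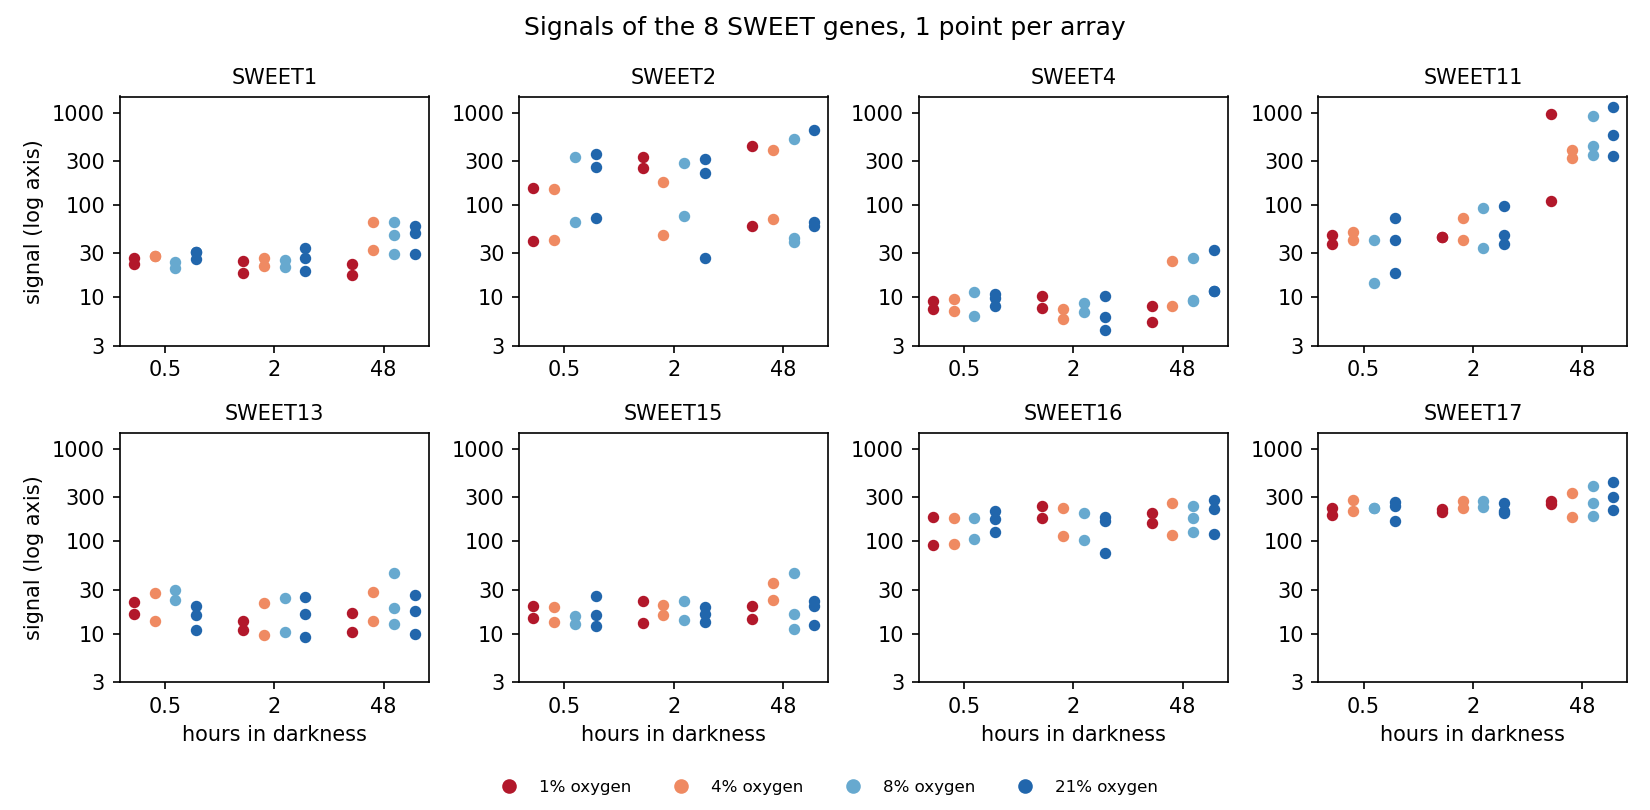
Signals (log axis) of the 8 SWEET genes on each array, by duration in darkness, with oxygen levels in colour from 1% (left within each duration) to 21%. SWEET11 alone has its 48 h points clear of the earlier ones. SWEET2 splits into 2 bands at every duration, and the 3 high SWEET4 points at 48 h are the letter B arrays.

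SWEET2 (AT3G14770), the vacuolar glucose carrier, split by replicate letter at every duration. At 0.5 h its signals were 40.7 and 154 in 1% oxygen, 41.5 and 149 in 4%, 66.0 and 333 in 8%, and 73.2, 259 and 356 in normal air. At 2 h they were 332 and 251 in 1% oxygen, 47.0 and 179 in 4%, 77.1 and 287 in 8%, and 26.6, 315 and 222 in normal air. At 48 h they were 60.1 and 439 in 1% oxygen, 69.9 and 393 in 4%, 44.2, 40.1 and 524 in 8%, and 58.8, 66.3 and 656 in normal air. Arrays of a group lay far apart, 1% oxygen at 2 h excepted, and the order followed the letter. Letters A, B, C and D read 44.2 to 60.1, 40.1 to 69.9, 66.0 to 77.1 and 26.6 to 47.0, while letters E, F and G read 315 to 332, 149 to 656 and 333 to 356. The letter took 97.7% of the spread within groups of SWEET2 (sum of squares on the log2 scale), against a median of 75.9% over all probe sets, which put SWEET2 at percentile 99.6 of them.

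Without the letter in the model, SWEET2 passed in no comparison. Over lowered oxygen its log2 difference was -0.17 ± 0.794 for 48 against 2 h (limma adjusted p = 0.916) and 0.49 ± 0.794 for 48 against 0.5 h (limma adjusted p = 0.753), with intervals of -1.83 to 1.49 and -1.17 to 2.15. With the letter as a block, the residual SD was 0.30 on the log2 scale, against 1.58 without it. The blocked difference of 48 from 0.5 h was 1.26 (limma adjusted p = 0.000475), where 25% of all probe sets passed, and by level 1.5 at 1% (limma adjusted p = 0.00435), 1.48 at 4% (limma adjusted p = 0.00607) and 0.80 at 8% (limma adjusted p = 0.281). Within letter F, SWEET2 was 2.79-fold higher at 48 h than at 0.5 h in 1% oxygen, 2.57-fold in 4% and 2.50-fold in normal air (signal + 6). Against 2 h the ratios were 1.73 in 1%, 2.15 in 4%, 1.81 in 8% and 2.91 in normal air. The blocked estimates of SWEET2 and SWEET11 rest on letter F as the only letter with arrays both at 48 h and before. At 8% letter F has no array at 0.5 h, so the blocked difference from 0.5 h there is indirect.

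SWEET2 in lowered oxygen differed from normal air by -1.20 to 1.14 on the log2 scale in the 9 comparisons, none of which passed, with 4 above and 5 below 0. They ran from -0.62 to 0.65 with the letter as a block, with 3 above and 6 below 0, and none passed. The block turned the sign of 3 of them, to 0.13 from -0.43 at 4% and 2 h, and at 48 h to -0.25 from 0.23 at 1% and to -0.27 from 0.26 at 4%. Within letters at 48 h, the 1% array differed on the log2 scale from its normal-air partner by 0.03 in letter A and -0.57 in letter F. The 4% array differed by 0.07 in B and -0.73 in F, and the 8% array by -0.37 in A, -0.65 in B and -0.32 in F. In letter F the 3 differences share 1 normal-air array, which had the highest SWEET2 signal of all arrays (656), so their signs are not independent. They were not counted over all probe sets.

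**Figure D4:**
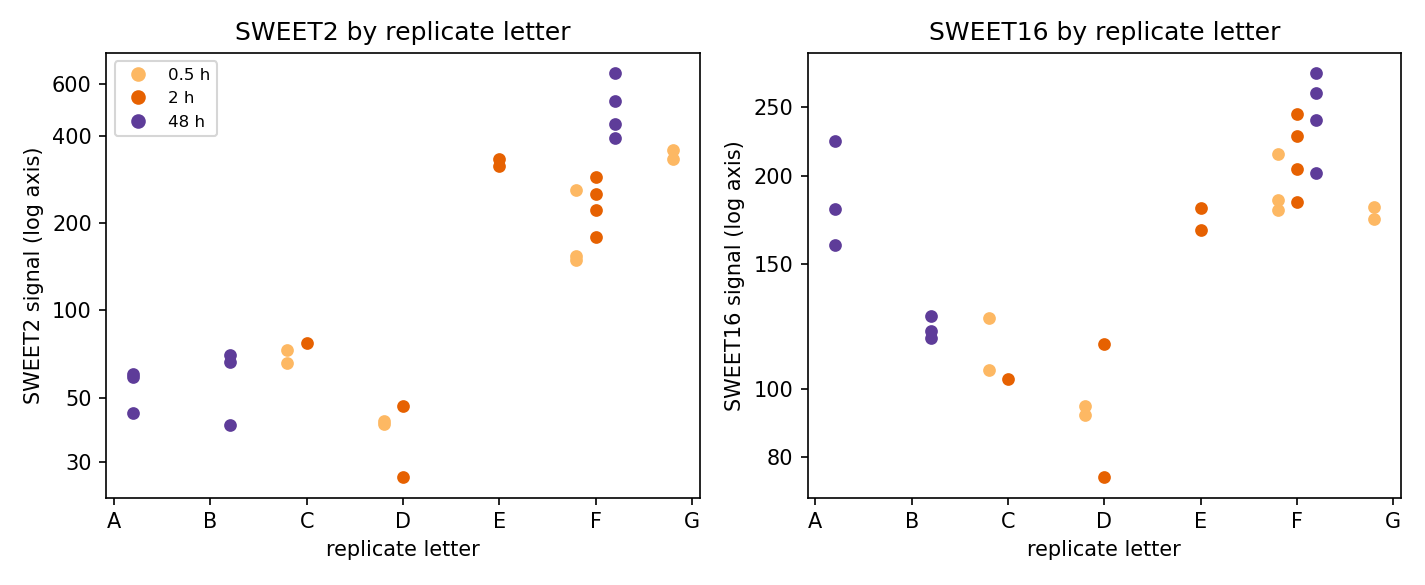
Signals (log axis) of SWEET2 and SWEET16 by replicate letter, coloured by duration in darkness, 1 point per array. SWEET2 is at most 77.1 in letters A to D and at least 149 in letters E to G, and SWEET16 is lowest in letter D (75.0 to 116) and highest in letter F (179 to 279).

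SWEET16 (AT3G16690), a vacuolar carrier of glucose, fructose and sucrose, also followed the letter, which took 97.1% of its spread within groups. Its signals ran from 75.0 to 116 in letter D, 103 to 126 in C, 118 to 127 in B, 160 to 224 in A, 167 to 180 in E, 174 to 181 in G and 179 to 279 in F. Over lowered oxygen the log2 difference was 0.05 ± 0.292 for 48 against 2 h (limma adjusted p = 0.93) and 0.40 ± 0.292 for 48 against 0.5 h (limma adjusted p = 0.421). With the letter as a block, the difference from 0.5 h was 0.26 and did not pass either (limma adjusted p = 0.0857). In letter F its 48 to 2 h ratio of signal + 6 was 0.830 in 1% oxygen, 1.15 in 4%, 1.17 in 8% and 1.5 in normal air. SWEET17 (AT4G15920), the vacuolar fructose carrier, read 169 to 442 over the 28 arrays and was never below the array median. Its log2 difference of 48 from 2 h was 0.11 ± 0.185 (limma adjusted p = 0.743, interval -0.27 to 0.50), and that of 48 from 0.5 h 0.19 ± 0.185 (limma adjusted p = 0.558). Its signals at 48 h were 272 to 442 in letter A, 186 to 218 in letter B and 254 to 338 in letter F.

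Over the 8 genes and 9 oxygen comparisons, 0 of 72 values passed in limma, and the count with the letter as a block was 0 as well. Without the block 2 had an unadjusted p below the 0.05 threshold (SWEET1 and SWEET4 in 1% oxygen at 48 h). The rule that chose the genes also covered effects of oxygen, so these counts are a description. Few probe sets of any kind passed in these comparisons. At 1%, 4% and 8% oxygen they were 0.0518%, 0.0444% and 0.0148% at 0.5 h, 0.34%, 0.126% and 0.0222% at 2 h, and 0.0962%, 0.037% and 0% at 48 h, so a count of 0 among 8 genes is near the background. With the block these shares were 0.0222%, 0.0074% and 0.0148% at 0.5 h, 1.66%, 0.207% and 0.0148% at 2 h, and 2.27%, 0.17% and 0% at 48 h. In 1% oxygen at 48 h, 7 of the 8 differences were below 0, with a median of -0.24, where the median over all probe sets was -0.11. Over the 12 duration comparisons at lowered oxygen, 4 of 96 values passed, all of SWEET11, and 13 had an unadjusted p below the threshold. With the letter as a block 13 passed, all of SWEET11 and SWEET2. The blocked shares of all probe sets for 48 against 2 h were 9.21% at 1%, 10.1% at 4%, 9.35% at 8% and 25% in the mean. No value of the 8 genes passed for 2 against 0.5 h, where 0.0814%, 0% and 0% of all probe sets passed at 1%, 4% and 8% oxygen, and with the block 0.377%, 0.0074% and 0%, and 0.54% in the mean.

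The change with time at lowered oxygen was also set against that in normal air, as an interaction. The change in normal air, treated as used in choosing the genes, enters each of these values, so they are a description and nothing is read from the counts. Of 48 values for the 8 genes 0 passed in limma, and 0 had an unadjusted p below the threshold, where at most 0.0518% of all probe sets passed. For 48 against 0.5 h at 1% oxygen this share was 0.0074%, and with the block, which gave no call in the 8 genes either, 0.466% for 48 against 2 h and 0.0518% for 48 against 0.5 h. For SWEET11 the change from 0.5 to 48 h differed from that in normal air by -0.95 ± 0.999 at 1%, -0.96 ± 0.999 at 4% and 0.31 ± 0.947 at 8% oxygen on the log2 scale. The model's intervals were -3.04 to 1.13, -3.05 to 1.12 and -1.67 to 2.28.

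**Figure D5:**
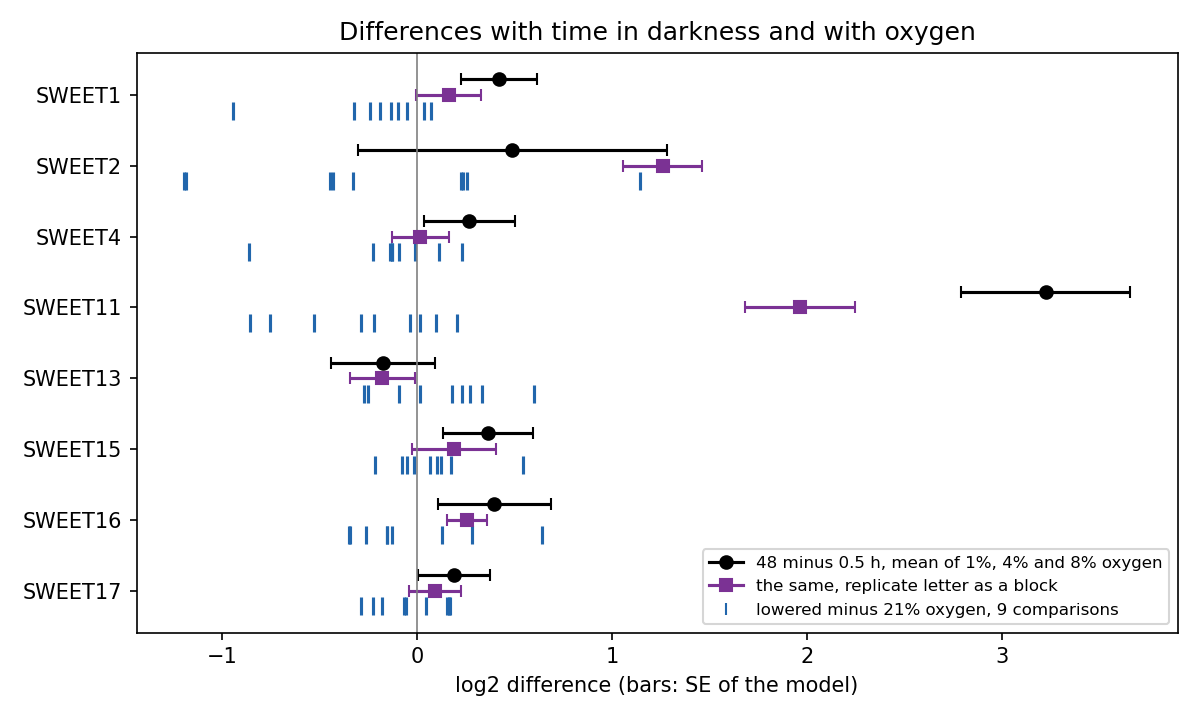
Log2 differences of the 8 SWEET genes. Circles are 48 minus 0.5 h over the mean of 1%, 4% and 8% oxygen, squares the same with the replicate letter as a block (bars: SE of the model), and ticks the 9 differences of lowered from 21% oxygen. SWEET11 stands at 3.23 and 1.97 with its oxygen ticks between -0.86 and 0.21, and the SWEET2 square lies at 1.26.

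Of the whole SWEET family, 16 of 17 genes had a single-gene probe set, the 8 above among them. In 48 against 2 h over lowered oxygen 2 of these 16 were higher, SWEET11 and SWEET3, and none was lower, where 5.04% of all probe sets passed as higher and 7.2% as lower, so the count is near the background. SWEET3 (AT5G53190) ran from 24 to 82.6 at 48 h, against 10.1 to 29.2 at 2 h, and was 0.91 ± 0.20 higher on the log2 scale (limma adjusted p = 0.00474). The median difference over the 16 was 0.25, beside 0.05 over all probe sets. In the oxygen comparisons none of the 16 passed, where the shares of all probe sets were at most 0.34%. The other 7 family members outside the list, SWEET5 to SWEET10 and SWEET14, did not pass in this comparison either.

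Other sugar transport and sugar use genes were sparsely covered by single-gene probe sets, and the counts below stand beside 5.04% of all probe sets higher and 7.2% lower at 48 than at 2 h over lowered oxygen. Of 15 plasma membrane monosaccharide symporters 4 were measured, and 1 was higher at 48 than at 2 h, the hexose symporter STP3 (21.1 to 51.1 at 48 h, against 12.4 to 25.7 at 2 h, log2 difference 0.67, limma adjusted p = 0.0458). Of 9 vacuolar sugar transporters 5 were measured and 1 was lower, ERDL4, with 109 to 188 at 48 h, against 179 to 321 at 2 h (log2 difference -0.66, limma adjusted p = 0.0132). TST1 and TST2, which load sugars into the vacuole, did not pass (-0.73 and 0.42, limma adjusted p = 0.234 and 0.157). Of 16 genes of sucrose cleavage 2 were measured and neither passed, and no sucrose symporter of the SUC family had a single-gene probe set.

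Of 18 genes known to be raised by darkness and sugar shortage 3 were measured, and all 3 were higher at 48 than at 2 h over lowered oxygen, where 5.04% of all probe sets were. IVD, an enzyme of leucine breakdown, had 369 to 720 at 48 h, against 165 to 367 at 2 h (log2 difference 0.95, limma adjusted p = 0.00487). MCCA, a subunit of the next enzyme of that pathway, stood 0.81 higher (limma adjusted p = 0.00703) and PPDK, pyruvate orthophosphate dikinase, 1.29 higher (limma adjusted p = 0.0112). None of the 3 passed in an oxygen comparison, where at most 0.34% of all probe sets did. Of 18 leaf photosynthesis genes 2 were measured. RCA, Rubisco activase, had 28.3 to 168 at 48 h, against 35.4 to 199 at 2 h, and LHCB4.1, a light-harvesting protein, had 181 to 677, against 104 to 372 (log2 difference 0.88, limma adjusted p = 0.0724), so neither was at 0 and neither passed. LHCB4.1 was 1.42 higher at 48 than at 2 h with the letter as a block and passed (limma adjusted p = 0.000595), where 10.1% of all probe sets were higher, and RCA did not pass (0.23, limma adjusted p = 0.527). Of the root markers, EXPA7, a root hair expansin, was 0.86 lower at 48 than at 2 h (14.4 to 71.6, against 53.9 to 115, limma adjusted p = 0.0213), while EXPA18 and PYK10 did not pass. The part of a shift in leaf or root hair RNA in the SWEET11 change was not tested.

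The 5 genes whose 12 group means followed those of SWEET11 most closely, among 7472 probe sets with a mean signal of at least 24, were AT5G25440 (Pearson r = 0.988 on the log2 scale), TET5, a tetraspanin (0.985), ATL8, a RING-type ubiquitin ligase of the ATL family (0.985), PAHX, phytanoyl-CoA hydroxylase (0.983), and AT4G38540 (0.981). The group means share arrays, so these correlations are a description without a test. ATL8 signals spanned 76.6 to 209 at 0.5 h, 101 to 260 at 2 h and 263 to 1038 at 48 h, and those of PAHX 347 to 438, 361 to 473 and 593 to 1013. The 5 genes were picked for their likeness to SWEET11. Nothing is therefore read from each 48 h array lying above each array at 0.5 and 2 h in all 5. Among the SWEET genes, r with SWEET11 over the 12 groups was highest for SWEET17 (0.80). It was 0.71 for SWEET1, 0.69 for SWEET4, 0.60 for SWEET15, 0.58 for SWEET16, 0.04 for SWEET13 and 0.02 for SWEET2. These group means are not adjusted for the letter, and letters A and B occurred at 48 h only. The highest SWEET4 signals were those of letter B. Within letter F, SWEET2 rose from 2 to 48 h at every oxygen level, as SWEET11 did.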

How the data were processed

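Signals are intensities that the authors made with MAS5, per the submitters' processing notes, whose version and detection calls are not given in the sources used here. The deposited intensities already had a trimmed mean of 100 on each array, checked on the 28 arrays, and this scaling was kept. Of 22810 probe sets, 64 controls were left out, and of the rest 13513 name 1 gene, 503 several and 8730 none in the platform annotation. Symbols were updated through RefSeq, in which 29 single-gene probe sets have no row. The log2(signal + 6) values of all 28 arrays entered 1 limma fit (version 3.58.1, R 4.3.3) of group means, with 16 residual degrees of freedom, an intensity trend and two-sided tests. The pseudocount shrinks the folds of dim genes below the ratio of their signals. In 27 tested comparisons, 9 were of oxygen, 12 of duration at lowered oxygen and 6 interactions, and 3 of duration in normal air were described. The genes named are the listed loci, the 5 most like SWEET11 and up to 4 members per context list by smallest p in 48 against 2 h.

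The members and lists were chosen with earlier results of these data known. Whether letters pair arrays was checked by correlating arrays after group means were removed. Pairs with the same letter were above 0.1 in 6 of 6 cases at 0.5 h, 12 of 12 at 48 h and 3 of 3 between 48 and 0.5 h, but in 5 of 8 at 2 h and 3 of 4 between 48 and 2 h. Blocked values (10 residual degrees of freedom) of comparisons with 2 h are therefore given with the alternatives. In a group of 2 arrays the values left after removing the mean are exact opposites, so pairs repeat and the cases are not independent. The pairs between 48 and 0.5 h are all of letter F. The counts are a description and do not settle whether letters pair arrays. The fit was tested on simulated data without an effect of the letter, so that test does not cover the letters.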

Additional observations from a re-analysis of the deposited data

How the results depend on the processing

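The count of 0 passing oxygen values and of 0 passing interactions among the 8 genes was the same under every alternative run: pseudocounts of 1.5 and 24, quantile normalization, centring on the array median, no intensity trend, leaving out the dimmest 40% of probe sets (which removes SWEET4), all probe sets, arrays of the compared durations only, the letter as a block, each array left out, and, chosen after seeing the data, no letter B arrays or no letter A and B arrays. In the last of these runs every 48 h group is 1 array, so nothing is read from its count. The mean SWEET11 differences over lowered oxygen kept their call in each of the others. They were 2.27 to 3.29 for 48 against 2 h and 2.71 to 3.74 for 48 against 0.5 h when 1 array was left out. In normal air the untested SWEET11 difference of 48 from 2 h was 2.83 to 3.70 when 1 array was left out and 2.57 with the block.

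The 4 passing duration values became 13 with the letter as a replicate block and 3 to 7 when 1 array was left out, the 7 without the 1% letter F array at 48 h. Blocked values of 48 against 2 h were 1.99 for SWEET11 over lowered oxygen (adjusted p = 9.52e-05), with 2.02, 2.19 and 1.77 at 1%, 4% and 8% (adjusted p = 0.00856, 0.00549 and 0.0161). For SWEET2 the block turned the sign, to 0.98 over lowered oxygen (adjusted p = 0.00148) and 1.09 at 1% (adjusted p = 0.0396). The sign also turned at 8%, to 0.58, which did not pass (limma adjusted p = 0.25). At 4% the blocked value of SWEET2 was 1.28 (adjusted p = 0.0154). The SWEET11 call at 8% for 48 against 2 h was lost after median centring (adjusted p = 0.0504), with only the compared durations (adjusted p = 0.0834) and without letter B (adjusted p = 0.0769). Without letters A and B, 8% oxygen at 48 h keeps letter F alone, so no p is given. Over all probe sets the counts were 3376 with the block, against 1654 without it, for 48 against 2 h, and 3379, against 2005, for 48 against 0.5 h. With the arrays of the compared durations alone, the all genes count at 8% oxygen was 72, against 202, for 48 against 2 h and 71, against 247, for 48 against 0.5 h. In the fit of all probe sets that are not controls, which tests more of them, 3397 and 3909 passed in the mean comparisons. The cause was not tested. Low signal limits what can be seen of SWEET4, SWEET13 and SWEET15, for which no detection calls are given.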
